A study of Mus musculus with 5 samples.

Results

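A set of germline genes known as targets of silencing by DNA methylation, Dazl, Ddx4, Sycp1, Sycp3, Mael, Figla, Asz1, Tdrd1, Piwil2 and Stk31, was followed in 5 mouse ESC lines. They were chosen by name, as every array probe that is not a control and whose listed gene is among these 10. The 10 genes were represented by 12 probes, with a pair of probes each for Dazl and Tdrd1, out of 19554 gene names with a probe kept for testing. All 12 member probes were kept, which required a Present call on at least 1 array, and 9 of them were well above background on all 5 arrays.

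The study replaced the coding region of ECAT11, also called L1td1, a gene expressed in undifferentiated ESCs, with an EGFP and puromycin resistance cassette and compared the knock-in lines with wild-type lines. Total RNA of each line was labelled with Cy3 and hybridized to 1 single-colour Agilent array. The question put to the arrays was whether loss of ECAT11 alters gene expression in ESCs. The wild-type group held 2 lines. RF8 is the parental line used for gene targeting, labelled male and of 129sv origin, and #620-2 is labelled female and of C57BL6/129sv origin. The ECAT11EGFP/EGFP group held 3 lines of C57BL6/129sv origin, #620-6 labelled female, and #757-1 and #757-2 both labelled male. All 5 lines were grown in serum with LIF on gelatin. Every line other than RF8 was derived from blastocysts of intercrossed heterozygous mice, and each line stands for 1 clone with 1 array. The p-values therefore measure the spread between clones. ECAT11 itself is not analysed here.

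Germline genes of this kind carry CpG-rich promoters. In somatic cells those promoters are methylated, and loss of the DNA methyltransferases is known to release several of the genes in cultured cells. Besides DNA methylation, a Polycomb complex built around E2F6, MGA and PCGF6 and the H3K9 methyltransferases are known to keep germline promoters silent in ESCs. MGA with MAX reads the E-box CACGTG, and E2F6 with its DP partner reads the motif TCCCGC. The arrays measured RNA only, so the methylation of the promoters in these lines was not measured.

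RefSeq promoter windows on GRCm38.p6, which run from 250 bases before to 50 bases after each annotated start, were found for 9 of the 10 genes, in 12 windows. The windows of 5 genes are printed 5′ to 3′ on the strand of the gene, with capitals for each match to the E-box and for each match to the E2F6 motif on either strand. Dazl is shown for the widest spread among members well above background in every line, Sycp1 and Ddx4 for opposite positions of the line #620-6, and Sycp3 and Mael for values that divided the lines by genotype and by sex label. The windows lay at chr17:50293571-50293870 (minus strand) for Dazl, chr13:112652261-112652560 (minus) for Ddx4, chr3:102936051-102936350 (minus) for Sycp1, chr10:88459337-88459636 (plus) for Sycp3 and chr1:166238695-166238994 (minus) for Mael.
Dazl: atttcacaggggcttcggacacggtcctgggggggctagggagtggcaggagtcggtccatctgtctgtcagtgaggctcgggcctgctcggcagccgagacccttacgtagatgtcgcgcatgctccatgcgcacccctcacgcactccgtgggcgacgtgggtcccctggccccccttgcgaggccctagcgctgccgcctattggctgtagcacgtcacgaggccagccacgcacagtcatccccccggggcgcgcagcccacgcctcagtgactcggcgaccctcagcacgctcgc
Ddx4: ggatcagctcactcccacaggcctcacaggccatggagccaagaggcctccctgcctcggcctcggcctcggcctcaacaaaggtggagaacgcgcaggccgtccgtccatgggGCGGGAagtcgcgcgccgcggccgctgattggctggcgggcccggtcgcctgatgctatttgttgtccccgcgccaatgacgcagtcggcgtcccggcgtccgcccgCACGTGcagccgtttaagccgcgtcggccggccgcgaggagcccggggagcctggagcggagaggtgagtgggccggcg
Sycp1: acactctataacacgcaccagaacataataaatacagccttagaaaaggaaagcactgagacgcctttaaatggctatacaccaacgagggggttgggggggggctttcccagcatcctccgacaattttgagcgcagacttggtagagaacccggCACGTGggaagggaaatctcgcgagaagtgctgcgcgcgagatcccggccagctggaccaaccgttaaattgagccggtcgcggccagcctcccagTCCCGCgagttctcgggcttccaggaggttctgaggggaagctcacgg
Sycp3: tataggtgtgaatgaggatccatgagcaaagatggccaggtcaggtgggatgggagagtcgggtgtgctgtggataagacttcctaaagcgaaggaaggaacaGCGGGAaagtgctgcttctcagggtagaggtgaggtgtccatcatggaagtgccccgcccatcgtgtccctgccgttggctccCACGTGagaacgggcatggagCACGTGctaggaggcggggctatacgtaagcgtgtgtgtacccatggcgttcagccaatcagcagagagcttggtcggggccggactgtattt
Mael: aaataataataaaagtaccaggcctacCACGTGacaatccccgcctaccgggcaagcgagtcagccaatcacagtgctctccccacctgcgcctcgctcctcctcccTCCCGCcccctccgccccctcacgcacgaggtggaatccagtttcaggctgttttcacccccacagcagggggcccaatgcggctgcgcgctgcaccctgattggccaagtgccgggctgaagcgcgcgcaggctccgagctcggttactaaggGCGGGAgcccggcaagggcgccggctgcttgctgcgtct

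Most of the windows held more CpG than the median promoter. The window of Ddx4 held 38 CpG dinucleotides, that of Dazl 28, that of Mael 24, that of Sycp1 21 and that of Sycp3 15, against a median of 7 over all 32544 promoters in the table. Of the windows not printed, those of Stk31 held 29 and 28, that of Asz1 17 and that of Figla 16, while the 3 windows of Tdrd1 held 20, 25 and 3. The E-box was present in the windows of 6 of the 9 genes, Ddx4, Sycp1, Sycp3, Mael, Tdrd1 and Stk31, and in 7.17% of all promoters. The E2F6 motif, counted on both strands, was present for 4 genes, Ddx4, Sycp1, Sycp3 and Mael, and in 20.1% of all promoters. The same 4 genes held both motifs, as did 2.01% of all promoters. The shares over all promoters count each window, whereas the members are counted by gene. By window, 8 of the 12 member windows held the E-box. Ddx4, Sycp1, Sycp3 and Mael, the genes with the E2F6 motif, have a single window each. The windows of Dazl, Figla and Asz1 held neither. The motifs do not share bases with each other in the printed windows, and a match is a description of the letters.

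**Figure D1:**
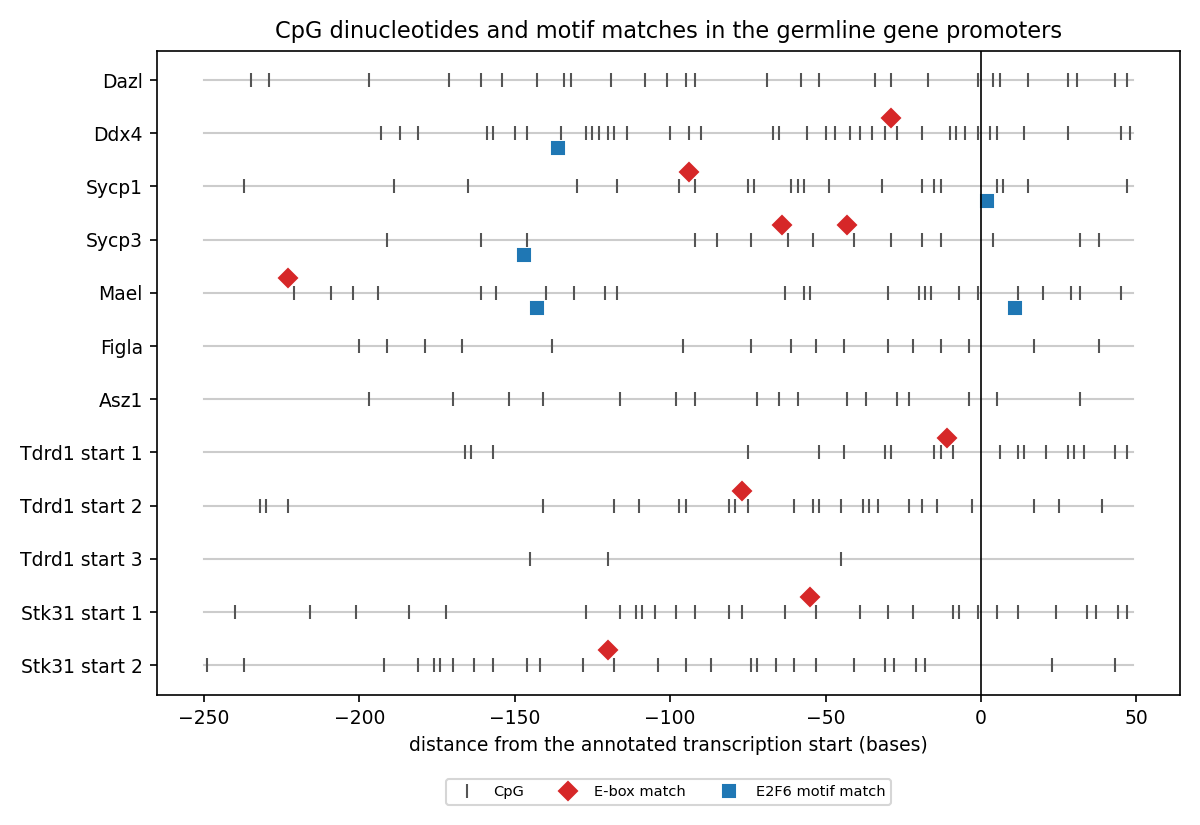
Positions of CpG dinucleotides (ticks), E-box matches (diamonds) and E2F6 motif matches (squares) in the 12 promoter windows of 9 germline genes, by distance in bases from the annotated start. CpG counts run from 3 to 38 per window, and the 4 genes with both kinds of match are Ddx4, Sycp1, Sycp3 and Mael.

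The values below are log2 signals relative to the 75th percentile of the same array, and a level of 1 probe is compared only between lines. The 75th percentile ran from 687.5 to 794.4 intensity units. The arrays lay on 2 slides, with RF8, #620-2 and #620-6 on slide 1 and #757-1 and #757-2 on slide 2. Slide 1 had between 26390 and 27181 probes well above background, against 22063 and 21260 on slide 2, and the detection floor, the dimmest signal still well above background, was -6.21 to -5.90 on slide 1 but -4.49 and -4.22 on slide 2. No spot was saturated. The labels of the lines held in the sex check, since the detected probes of the Y-linked genes Ddx3y, Eif2s3y, Kdm5d and Uty were well above background in the 3 lines labelled male alone, and 3 of 4 Xist probes were so in the 2 lines labelled female alone. The fourth Xist probe was well above background in RF8 and #620-6. The ESC genes Pou5f1, Sox2, Nanog, Esrrb and Zfp42 were well above background in all 5 lines.

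The germline genes did not share 1 order of the lines. The line #620-6 had the highest signal of the 5 lines for Dazl (both probes), Sycp1, Piwil2 and Stk31, and it was the line with Asz1 well above background. The same line had the lowest signal for Ddx4, Tdrd1 and Sycp3. Among the 9 member probes well above background on all arrays, #620-6 was highest for 5 and lowest for 3, where over all 20617 such probes it was highest for 20.3% and lowest for 26.7%. Mael, the remaining one, was high in both #620 lines. With the settings used here no member passed the adjusted threshold in any comparison, so these positions are descriptions of 1 array per line.

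**Figure D2:**
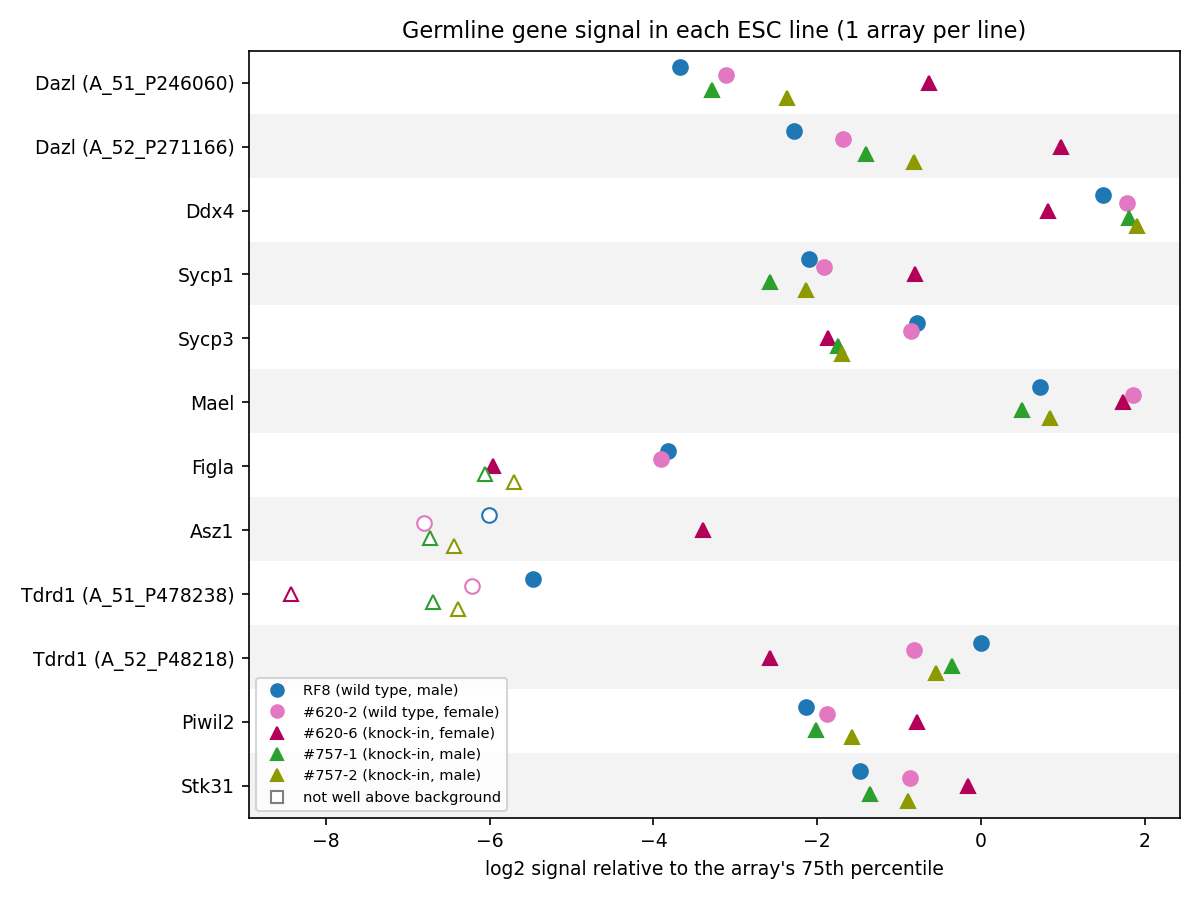
Log2 signal of each of the 12 germline gene probes in the 5 lines, relative to the 75th percentile of each array. Circles are wild-type and triangles ECAT11EGFP/EGFP lines, and open symbols were not well above background. #620-6 lies to the right of all other lines for Dazl, Sycp1, Piwil2, Stk31 and Asz1 and to the left of them for Ddx4 and Tdrd1. Rows are different probes, whose levels cannot be set against each other.

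Dazl, an RNA-binding regulator of translation that germ cells need for their development, had the widest spread of the members measured in every line. For the probe A_52_P271166 (chromosome 17, 48427556 to 48427615 in mm7, the build of the array's probe positions) the log2 signal read -2.28 in RF8, -1.68 in #620-2, 0.98 in #620-6, -1.40 in #757-1 and -0.82 in #757-2. The line #620-6 stood 3.46-fold above the next line, #757-2, and 9.56-fold above the lowest, RF8. The second probe, A_51_P246060 (48435590 to 48435736), gave -3.67, -3.12, -0.63, -3.28 and -2.37 in the same order of lines. Here too #620-6 was highest, 3.32-fold above #757-2, and the other 4 lines lay within 1.31 on the log2 scale. Both probes put RF8 lowest and #757-2 second highest. Dazl is the member with CpG-rich sequence and neither motif in the printed window.

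Ddx4, the Vasa RNA helicase of germ granules, ran the other way in #620-6. Its log2 signal (chromosome 13, 109754306 to 109754365 in mm7) read 1.49 in RF8, 1.79 in #620-2, 0.82 in #620-6, 1.81 in #757-1 and 1.91 in #757-2. The other 4 lines lay within 0.42 of each other, and #620-6 lay 0.67 below the nearest of them. The probe was well above background in every line.

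The synaptonemal complex genes Sycp1 and Sycp3 divided the lines differently. Sycp1, which encodes the transverse filament that joins paired chromosomes in meiosis, gave log2 signals of -2.10 in RF8, -1.92 in #620-2, -0.80 in #620-6, -2.58 in #757-1 and -2.13 in #757-2 (chromosome 3, 102647366 to 102648037 in mm7). #620-6 was 2.17-fold above the next line, #620-2. Sycp3, a component of the lateral elements of the same structure, had -0.78 in RF8, -0.85 in #620-2, -1.87 in #620-6, -1.75 in #757-1 and -1.69 in #757-2 (chromosome 10, 88027463 to 88030553). All 3 ECAT11EGFP/EGFP lines lay below both wild-type lines, and the spread within each genotype was small beside the gap, with an SD of 0.049 among the 2 wild-type and 0.088 among the 3 knock-in lines. The windows of both genes hold an E-box and an E2F6 motif.

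The members Piwil2, Stk31, Asz1, Tdrd1 and Mael have roles in the piRNA pathway or its granules, in which PIWI proteins and small RNAs silence transposons in the germline. Piwil2, the PIWI protein MILI, gave log2 signals of -2.14 in RF8, -1.89 in #620-2, -0.78 in #620-6, -2.01 in #757-1 and -1.58 in #757-2 (chromosome 14, 65017174 to 65017233 in mm7). Stk31, a Tudor domain protein with a kinase-like domain, had -1.48, -0.87, -0.16, -1.36 and -0.89 (chromosome 6, 49407352 to 49407411). #620-6 was the highest line for both, 1.74-fold above #757-2 for Piwil2 and 1.64-fold above #620-2 for Stk31. Asz1, a protein of the granules between mitochondria that stabilizes piRNA pathway proteins, was well above background in #620-6 alone, at -3.39. In the other lines its probe (chromosome 6, listed from 17995964 to 18012447) lay at -6.01 in RF8, -6.80 in #620-2, -6.73 in #757-1 and -6.44 in #757-2, all not well above background. Against #620-2 the signal of Asz1 in #620-6 was at least 5.71-fold higher.

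Tdrd1, a Tudor domain scaffold that binds methylated PIWI proteins, had its lowest signal in #620-6, as Ddx4 did. The probe A_52_P48218 (chromosome 19, 56785896 to 56785955 in mm7) gave log2 signals of 0.0019 in RF8, -0.81 in #620-2, -2.58 in #620-6, -0.35 in #757-1 and -0.55 in #757-2. #620-6 lay 1.76 below the nearest line, #620-2, while the other 4 lines lay within 0.82 of each other. The second Tdrd1 probe, A_51_P478238 (56781966 to 56782447), was well above background in RF8 alone, at -5.47, and gave no fold between groups. Mael, a factor of the nuage that takes part in piRNA production, had 0.72 in RF8, 1.86 in #620-2, 1.74 in #620-6, 0.50 in #757-1 and 0.84 in #757-2 (chromosome 1, 166172164 to 166172223). Both #620 lines lay above the other 3, and the 2 differed by 0.12, less than the 3 male-labelled lines did among themselves.

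Figla, a transcription factor that switches on zona pellucida genes in oocytes, was dim throughout. Its log2 signal (chromosome 6, 86095987 to 86096046 in mm7) read -3.82 in RF8, -3.90 in #620-2 and -5.96 in #620-6, and -6.05 in #757-1 and -5.71 in #757-2, where it was not well above background. The ECAT11EGFP/EGFP group was thus measured on 1 of its 3 arrays. On the arrays of slide 2 the detection floor was -4.49 and -4.22, so signals lower than these could not be told from background there.

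No member was called between the genotypes. With limma, 0 of 12 member probes had more than a 2-fold change with an adjusted p under 0.05, where 0.00345% of all 28972 kept probes, a single probe, did. At an unadjusted p under 0.05 with the same fold, 1 of 12 passed, Figla, against 3.34% of all probes. Without the fold requirement the unadjusted count was 2, Figla and Sycp3, against 7.6% of all probes. For Figla the fitted log2 difference was -2.05 ± 0.18 (SE, 3 against 2 lines, limma adjusted p = 0.285), a value that rests on the signals of #757-1 and #757-2, which were not well above background. With normexp background correction it was -0.52 (limma adjusted p = 0.604). For Sycp3, measured in every line, the ECAT11EGFP/EGFP lines differed from the wild-type lines by -0.95 ± 0.15 (SE, limma adjusted p = 0.346), a 1.93-fold lower signal, from -0.82 ± 0.049 (SD, n = 2) to -1.77 ± 0.088 (SD, n = 3). Neither held up after adjustment over all probes. The methods' t-test on the same values gave 0 member probes after Benjamini-Hochberg adjustment.

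The Dazl estimates had larger errors than those of Figla and Sycp3. The log2 difference was 1.57 ± 0.77 (SE, limma adjusted p = 0.756) for A_52_P271166 and 1.30 ± 0.83 (SE, limma adjusted p = 0.835) for A_51_P246060, and the SD of the knock-in lines was 1.24 and 1.34. Without #620-6 the estimates were 0.87 and 0.57, the lowest of the 5 leave-one-out values. Asz1 was well above background in 1 of the 5 lines, #620-6, so no fold between genotypes is given (limma adjusted p = 0.938). For Ddx4 (-0.12) and Sycp1 (0.17) the difference was under its SE, and without #620-6 it turned to 0.23 and -0.34. For Tdrd1 the log2 difference of A_52_P48218 was -0.75 ± 0.79 (SE) with all lines and -0.042 without #620-6. Piwil2 (0.56), Stk31 (0.37) and Mael (-0.26) were under 2-fold as well. The genotype groups did not overlap for 4 of 12 member probes, 1 each of Dazl and Tdrd1 with Sycp3 and Figla, where 23.5% of all probes were so. For Figla and for Tdrd1 A_51_P478238 this order rests on signals not well above background. The median difference was 0.026 over the member probes and -0.019 over all kept probes.

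**Figure D3:**
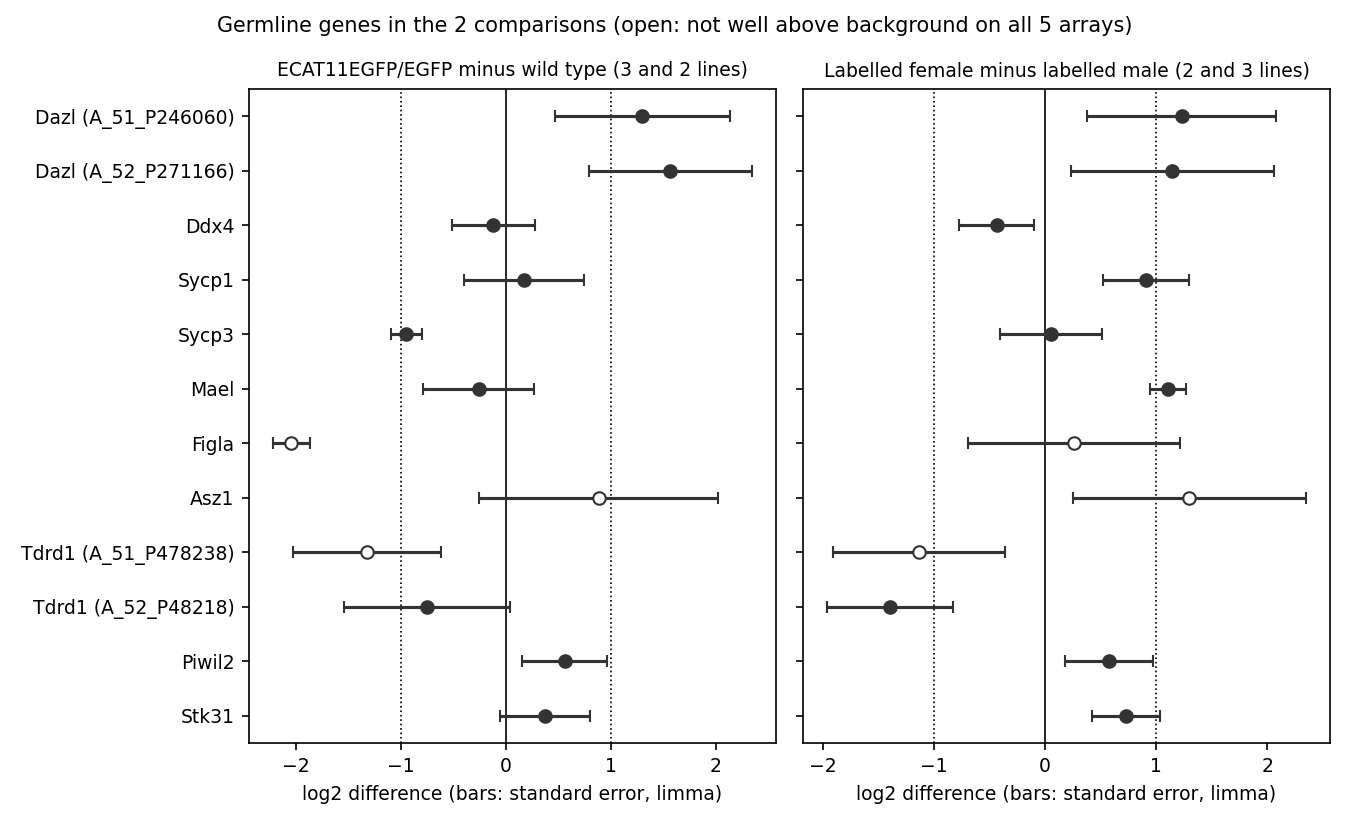
Log2 difference ± SE of each germline gene probe between genotypes (left, 3 ECAT11EGFP/EGFP against 2 wild-type lines) and between sex labels (right, 2 lines labelled female against 3 labelled male), from limma. Open points were not well above background on all 5 arrays and dotted lines mark 2-fold. Figla and Sycp3 have the shortest bars on the left, Mael on the right, and no probe passed the adjusted threshold in either comparison.

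A second comparison followed the sex label, since female ESC lines with both X chromosomes active are known for low DNA methylation. Whether both X chromosomes were active in the lines labelled female was not tested, and Xist was detected in them. In these data the female label coincides with the 2 lines numbered 620, so label and line number cannot be told apart. Again 0 of 12 member probes passed the adjusted threshold with limma, where 0.342% of all probes did. At an unadjusted p under 0.05 and 2-fold, 1 of 12 passed, Mael, against 7.33% of all probes, and without the fold requirement the count was also 1, against 18.0%. Mael was higher in the lines labelled female by a log2 difference of 1.11 ± 0.16 (SE, limma adjusted p = 0.087), or 2.16-fold, from 0.69 ± 0.17 (SD, n = 3) to 1.80 ± 0.086 (SD, n = 2). Mael passed the threshold with normexp background correction (limma adjusted p = 0.0356) and with a variance trend (0.0402), while its adjusted p ran up to 0.265 over the other alternatives.

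The other members had wide errors by sex label. Tdrd1 A_52_P48218 differed by -1.40 ± 0.57 (SE, limma adjusted p = 0.30), and Dazl by 1.23 ± 0.85 and 1.15 ± 0.92 (SE, limma adjusted p = 0.504 and 0.56). Without #620-6 the Dazl differences turned to -0.011 and -0.18 and that of the Tdrd1 probe was -0.52. For Asz1, measured in #620-6 alone, no fold is given (limma adjusted p = 0.564). The differences of Sycp1, Stk31 and Piwil2 were 0.91, 0.73 and 0.58 with all lines and 0.35, 0.38 and 0.024 without #620-6, and none passed the test. The sex label groups did not overlap for 4 of 12 member probes, those of Mael, Sycp1, Stk31 and 1 of Tdrd1, where 39.0% of all probes were so. The median difference was 0.65 over the member probes and -0.016 over all kept probes.

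The lines #620-2 and #620-6 share strain, sex label and slide and differ in the genotype label. With 1 array each they allow no test. Of the 11 member probes well above background in at least 1 of the 2 lines, 5 were more than 2-fold higher in #620-6, against 4.81% of all 27840 such probes, and 3 were more than 2-fold lower, against 4.01%. Dazl was 6.30-fold and 5.59-fold higher by its 2 probes, Asz1 at least 5.71-fold, Sycp1 2.17-fold and Piwil2 2.15-fold. Figla was 4.15-fold lower in #620-6 (log2 difference -2.05, and -0.69 with normexp background correction), Tdrd1 3.40-fold and Sycp3 2.02-fold. Just inside 2-fold were Ddx4, 1.95-fold lower, and Stk31, 1.64-fold higher, and Mael differed by 1.09-fold. Over the 10 member probes well above background in both lines, 4 were over 2-fold higher and 3 lower. The share over all probes in that set was taken with normexp only. With normexp background correction, which adds an offset to every signal, 2 of these 10 were over 2-fold higher, against 2.03% of all 25569 such probes, and 1 was lower, against 1.03%.

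**Figure D4:**
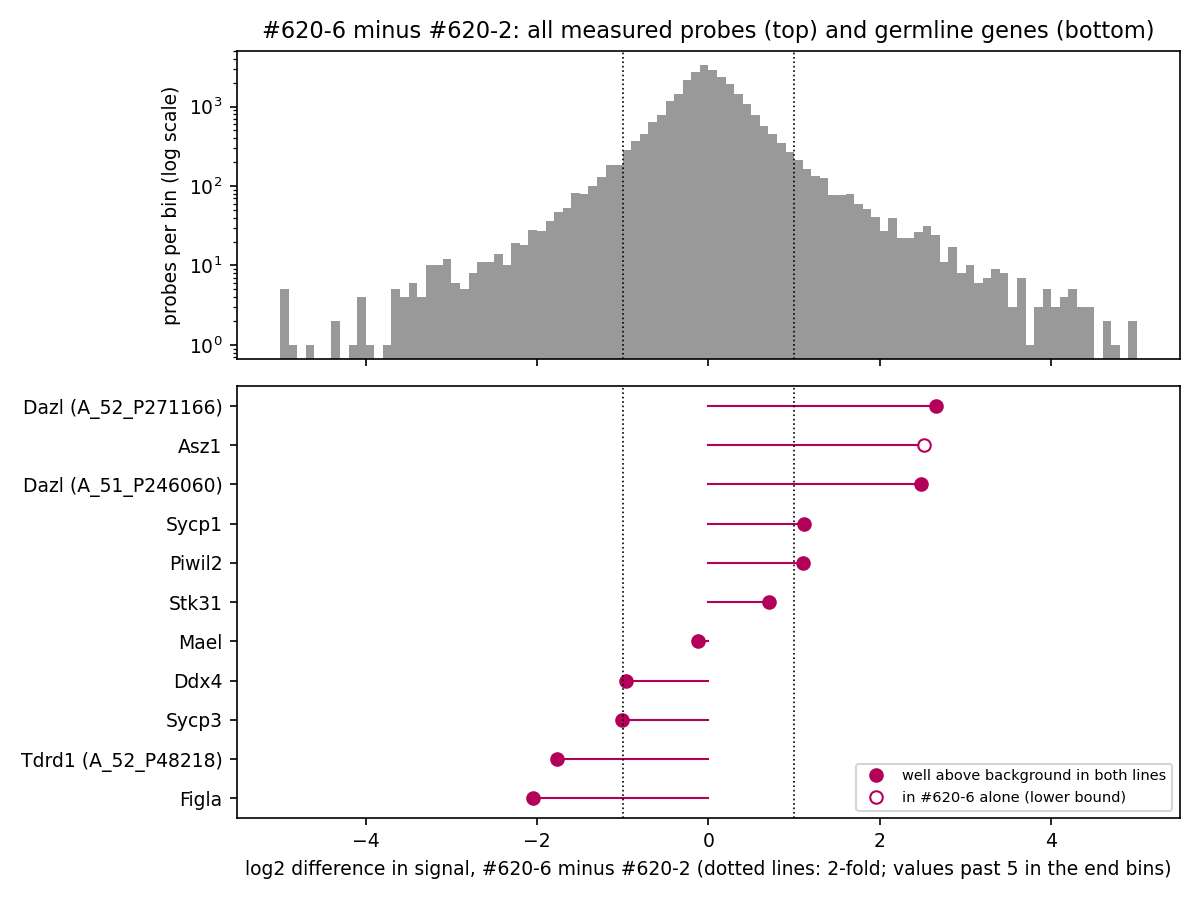
Log2 difference between #620-6 and #620-2, 1 array each. Top, number of probes per bin of 0.1 over all 27840 measured probes (log axis, values past 5 in the end bins). Bottom, the 11 measured germline gene probes, where the open point for Asz1 is a lower bound. In all, 8 of the 11 lie outside the dotted lines at 2-fold.

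Since #757-1 and #757-2 lay on their own slide, a fit with the slide as a block compares #620-6 with RF8 and #620-2 on slide 1. The knock-in arm is then a single array, assumed to vary like the other lines, whose spread comes from RF8 against #620-2 and from the #757 pair. In that fit 9 of 12 member probes had more than a 2-fold difference at an unadjusted p under 0.05, against 6.06% of all probes, and 0 passed the adjusted threshold with limma. Of these, 5 were higher in #620-6, those of Dazl, Asz1, Sycp1 and Piwil2, and 4 lower, those of Tdrd1, Figla and Sycp3. The 4 lower include Tdrd1 A_51_P478238, not well above background in #620-6 or #620-2, for which no fold is given. Estimates were 3.01 for Asz1, a fitted value of a probe dim in both wild-type lines (limma adjusted p = 0.241), 2.96 and 2.76 for Dazl (0.244 and 0.34), -2.17 for Tdrd1 A_52_P48218 (0.357) and -2.10 for Figla (0.199). The block fit thus describes the line #620-6 against the wild-type lines of its slide and not the genotype across slides.

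Of the 9 member probes measured in #757-1 or #757-2, the other knock-in lines, 0 differed by more than 2-fold, against 3.56% of all 22522 such probes, with no test possible for 1 array each. Dazl A_51_P246060 differed most, by 0.92 on the log2 scale, followed by Dazl A_52_P271166 with 0.58. For these male-labelled knock-in lines against the male-labelled wild-type RF8, the mean of the 2 lay 0.85 and 1.17 above RF8 for Dazl, and 0.94 below it for Sycp3. RF8 also differs from them in strain, slide and derivation, so genotype cannot be told apart from these. The product of genotype and sex label had an unadjusted p under 0.05 and over 2-fold for 4 of 12 member probes, those of Asz1, Ddx4 and Tdrd1, against 9.52% of all probes, and 0 passed after adjustment with limma (lowest adjusted p = 0.205, for Asz1). Of its 4 combinations 3 hold 1 array, so the spread comes from #757-1 against #757-2 and the lone arrays are assumed to vary like them. Asz1 was measured in #620-6 alone and Tdrd1 A_51_P478238 in RF8 alone.

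A list of 28 other germ cell genes had 34 kept probes for 26 genes, with 0 calls in either comparison with limma. At an unadjusted p under 0.05 and 2-fold, 1 probe was higher (Nanos3) and 1 lower (Piwil4) in the knock-in lines. That threshold held for 3.34% of all probes between genotypes and for 7.33% between sex labels. By sex label, 10 of the 34 probes were higher and 0 lower in the lines labelled female. Among these 10, the probes of Brdt, Piwil1, Tex11 and Sycp2 were not well above background in #757-1 or #757-2. Brdt and Taf7l were counted with more than 1 probe. In #620-6 against #620-2, 7 of 34 measured probes were over 2-fold higher and 1 lower, against 4.81% and 4.01% of all measured probes. The median log2 difference was 0.070 between genotypes, 0.44 between sex labels and 0.23 between the #620 lines, against -0.018 over all measured probes for the last. Hormad1, an axis protein of meiotic chromosomes, read -1.91 in RF8, -1.53 in #620-2, 0.62 in #620-6, -1.83 in #757-1 and -1.46 in #757-2 by the brighter of its probes, again highest in #620-6. Taf7l, a germ cell paralogue of a TFIID subunit, had -2.16, -0.73, 0.61, -1.90 and -1.78, high in both #620 lines and highest in #620-6. Tex19.1, a germ cell and placental protein also active in ESCs, had 5.11, 4.65, 6.38, 4.76 and 5.41. Mei1, needed for meiotic recombination, was the probe lower in #620-6, at -2.91, -2.41, -3.60, -2.97 and -3.04.

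The genes of DNA methylation were measured in every line. Among 14 probes for 9 genes 0 were called in either comparison with limma, and 0 passed the unadjusted threshold with 2-fold between genotypes. Between sex labels 2 passed it, against 7.33% of all probes, with Tet2 higher and Dnmt3b lower in the lines labelled female. The median differences were -0.058 between genotypes and -0.063 between sex labels. Dnmt3a, a de novo methyltransferase, gave log2 signals of 3.51 in RF8, 3.09 in #620-2, 1.86 in #620-6, 3.03 in #757-1 and 2.93 in #757-2 by its brightest probe, lowest in #620-6, and the other 2 probes were lowest there too. Dnmt3b, the other de novo enzyme, had 5.51, 4.17, 3.90, 5.44 and 5.25, low in both #620 lines (sex label difference -1.36, limma adjusted p = 0.0712). Dnmt3l, their cofactor, had 5.13, 6.04, 6.75, 6.21 and 6.02. The maintenance genes Dnmt1, Uhrf1 and Hells spanned at most 0.34 over the lines for each probe. In #620-6 against #620-2, 0 of the 14 probes were over 2-fold higher and 2 lower, both of Dnmt3a, against 4.81% and 4.01% of all measured probes. The 14 genes of the E2F6 Polycomb complex and the H3K9 methyltransferases had 25 kept probes, of which 0 were called with limma, 0 passed the unadjusted threshold with 2-fold in either comparison, and 0 differed by over 2-fold between #620-6 and #620-2. The part of Dnmt3a and Dnmt3b in the values of the germline genes was not tested.

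**Figure D5:**
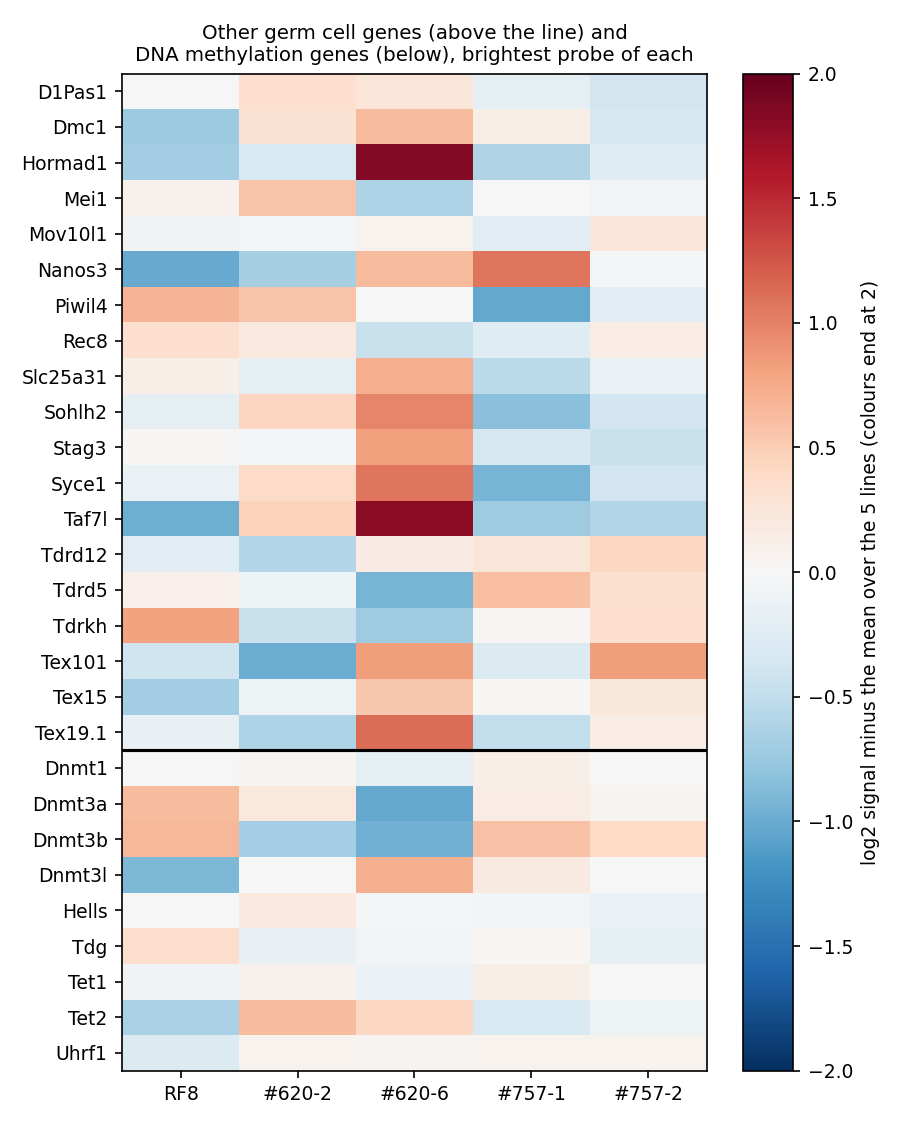
Log2 signal of each line minus the mean of the 5 lines, for the brightest probe of the other germ cell genes (above the line) and of the DNA methylation genes (below it) well above background on all arrays. Red is above the mean and blue below. Hormad1 and Taf7l are reddest in #620-6, where Dnmt3a and Dnmt3b are bluest.

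Markers of other cell states also differed between the lines. Of the 9 probes for the 2-cell-like genes Zscan4c, Tcstv1, Tcstv3 and Zfp352, 6 were over 2-fold higher in #620-6 than in #620-2, against 4.81% of all measured probes. The log2 summed signal of the 9 probes read 1.10 in RF8, 1.79 in #620-2, 3.29 in #620-6, -0.065 in #757-1 and 0.59 in #757-2. Zscan4c had -0.25, 0.68, 1.98, -1.35 and -0.82 by its brighter probe. Zfp42, a marker of undifferentiated ESCs, had 7.003, 6.80, 4.01, 6.56 and 3.87 by its brighter probe, low in #620-6 and #757-2. The other ESC genes did not share this order. Nanog had 2.54, 3.96, 4.54, 3.44 and 3.71, highest in #620-6. Pou5f1 had 2.565, 3.05, 2.87, 2.72 and 2.55, and Sox2 had 4.14, 4.55, 4.51, 4.67 and 4.55. Esrrb had 2.56, 3.84, 3.75, 3.35 and 3.62 by its brighter probe. Of the 5 probes for early germline genes, those of Dppa3, Tfap2c, Prdm1 and Nanos3 were over 2-fold higher in #620-6 than in #620-2, against 4.81% of all measured probes. At an unadjusted p under 0.05 and 2-fold the same 4 were higher in the knock-in lines, with 0 called by limma. That threshold held for 3.34% of all probes in either direction. The Nanos3 probe is the one already counted among the other germ cell genes. Tfap2c had 1.94, 2.24, 3.52, 3.62 and 3.80, and Dppa3 had 3.44, 2.02, 3.71, 4.80 and 4.73, so both were as high in the #757 lines as in #620-6 or higher. The log2 summed signal of the 8 kept fibroblast probes ran from 1.24 in #757-1 to 3.99 in RF8, and was 3.15 in #620-2 and 3.07 in #620-6. That of the 6 kept probes for genes of differentiated cells ran from -0.54 in #620-6 to 0.47 in #757-1, but these genes differed in order. Fgf5 was lowest in #620-6 (-2.26) and highest in #757-1 (0.23). Gata6 and Sox17 were higher in both #620 lines than in the others. Sox17 A_52_P279368 read -2.64 in #620-2, -2.99 in #620-6 and -4.99 in RF8, and was not well above background in #757-1 or #757-2. It was called by sex label (log2 difference 2.13, limma adjusted p = 0.0364), a value that rests in part on the dim signals of #757-1 and #757-2. The other kept Sox17 probe, A_51_P273667, also dim in those lines, was not called (log2 difference 1.94, limma adjusted p = 0.0571). Fewer expressing cells and less RNA per cell cannot be told apart in these bulk samples, and the part of these markers in the germline gene values was not tested.

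The genes most like Dazl in their pattern of levels over the 5 lines were sought among 13998 genes well above background in every line. The measure was the root mean square difference of centred log2 signals from A_52_P271166. Egfl6 (0.096) and H2-Eb1 (0.22) were among the nearest. Egfl6 had -4.13 in RF8, -3.41 in #620-2, -0.92 in #620-6, -3.03 in #757-1 and -2.66 in #757-2. Over 5 lines such likeness is a description of the pattern of levels.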

How the data were processed

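Total RNA of the 5 lines was hybridized to 5 single-colour arrays. The authors used Feature Extraction 9.5.3.1 on the scans and deposited a background-subtracted intensity for each of 45018 spots per array, as well as log2 values that they had normalized. The 1639 control spots were removed, and non-uniform or population outlier spots (0.335% of the others) were treated as missing. Intensities were scaled to the 75th percentile of their array, as in the study's methods, converted to log2 and averaged per probe (41174 probes). A Present call on 1 or more arrays was required, which kept 28972 probes. A probe counted as well above background where at least 50% of its spots did. Where a group was dim on every array, folds are lower bounds against the dimmest signal still well above background. Groups came from the labels. Tests used limma 3.58.1 (R 4.3.3), with Benjamini-Hochberg adjustment over all kept probes. An exact permutation of 2 against 3 arrays cannot go below p = 0.1. The code was tested on simulated data. Input and plots used pandas 2.3.3, matplotlib 3.10.9 and the R package data.table, version 1.17.8.

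All member probes were named, as were called genes and bright examples of the related lists, of which Hormad1, Taf7l, Tex19.1, Mei1, Dnmt3l and the marker genes were picked after their values were seen. The members and the lists were chosen with earlier results of these data known. Probe positions are those of mm7 in the files. No annotation of that build was used, so exon or UTR positions are not given. Promoter windows and updated symbols came from RefSeq (GRCm38.p6). The number of arrays limits the precision. The alternatives changed the background correction (normexp, offset 50), the scaling (quantile), the source (the authors' log2 values), the filter (none, or Present on 3 arrays), the marked spots (kept), the model (slide block, other label as covariate, variance trend), the test (the methods' t-test), the fold threshold (none) and the lines (each left out). Those for #620-6 against #620-2 were chosen after seeing the data. Of the genes most like Dazl, 1 is not reported here.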

Additional observations from a re-analysis of the deposited data

How the results depend on the processing

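Some alternatives leave a probe's difference as it is by construction. The authors' log2 values moved each genotype and sex label difference too little to change a sign, and they are counted as moved. Of the 120 values over the 12 member probes that moved, 113 kept the sign of the genotype difference and 106 of 120 that of the sex label difference, as did 30 of 30 for #620-6 against #620-2 over the 10 probes well above background in both. With the slide as a block, Mael turned to 0.45 between genotypes, and Sycp3 to -0.58 and Figla to -1.11 between sex labels. With the genotype as a covariate, the sex label difference was -0.11 for Sycp3 and -0.082 for Figla, and with normexp it was -0.045 for Figla. Leaving out each line in turn, the genotype difference ran from -0.32 to 0.23 for Ddx4, -0.34 to 0.54 for Sycp1, -0.83 to 0.31 for Mael and -0.18 to 1.49 for Asz1. The sex label difference ran from -0.92 to 0.046 for Ddx4, -0.011 to 2.47 and -0.18 to 2.47 for Dazl, -0.46 to 0.55 for Sycp3, -0.76 to 1.29 for Figla and -0.40 to 3.001 for Asz1. The cause was not tested.

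The number of member probes called between genotypes was 0 under every alternative. Between sex labels it was 1 with normexp and 1 with a variance trend (Mael). The count over all probes between genotypes was 0 with the slide as a block, normexp, the covariate, quantile normalization, the methods' t-test and no filter, 2 with the stricter filter, and 0 without each line in turn. Between sex labels, 99 probes became 287 with normexp, 149 with the slide as a block, 27 with no filter, 208 with quantile normalization, 0 with the genotype as a covariate, 2 with the methods' t-test and 302 with a variance trend, 88 without RF8 and 0 without each of the other lines. In #620-6 against #620-2, over the 10 member probes measured in both, 4 higher and 3 lower became 2 and 1 with normexp. With normexp 2.03% of all such probes were higher and 1.03% lower. No paired analysis was possible because the labels give no replicate numbers and the genotypes share a single line number, 620. Signal over background limits Asz1, Figla and 1 Tdrd1 probe, above all on slide 2.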
